A study of Homo sapiens with 15 samples.

Results

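The 45 genes described here are a set that runs the cell cycle: cyclins and cyclin-dependent kinases (CDKs) with their inhibitors, the E2F group, the DNA replication machinery, 2 proliferation markers and the genes of mitosis. They were chosen by name, and each was represented by its brightest probe set that names 1 gene. All 45 were measured, among 19775 genes in all. RNA came from the human ovarian cancer line PEO1, long established in culture, sorted by flow cytometry into 3 fractions by the surface proteins CD90 (encoded by THY1) and CD133 (encoded by PROM1): CD90+/CD133+, CD90+/CD133- and CD90-/CD133-. Each fraction had 5 arrays, numbered replicate 1 to 5. All 3 fractions were untreated parental cells, grown in the same serum-containing medium. The paper describes its CD90+ and CD90- subpopulations as sorted from PEO1 and then established. Whether the fractions are states of 1 line or lineages within it was not tested. The methods describe 5 biological replicates for the CD90-/CD133- and CD90+/CD133- fractions, while the design text speaks of triplicates. For the CD90+/CD133+ fraction nothing says that its arrays came from separate cultures, so a p-value may measure only technical spread there.

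A dividing cell first commits to replicate its DNA, when CDKs paired with D and E cyclins inactivate the retinoblastoma protein and free the E2F transcription factors, which switch on the replication genes. Later, cyclin B with CDK1 drives entry into mitosis, mitotic kinases assemble and check the spindle, and the anaphase-promoting complex then destroys cyclins so that the cell can divide. The RNAs of replication genes peak around S phase and those of mitotic genes in G2 and mitosis, so a cycling culture holds both, and ovarian cancers often carry lesions of this machinery.

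Values are intensities on the array's linear scale, normalized by the authors, with values under 16 set to 16. A log2 change is the difference of mean log2 intensities between fractions, with its standard error (SE), and a gene was called at a Benjamini-Hochberg adjusted p under 0.05 over all genes in limma, with the replicate number as a block. The median intensity of an array was 29.4 to 30.8 in CD90+/CD133+, 29.95 to 32.3 in CD90+/CD133- and 29.9 to 32.4 in CD90-/CD133- cells. The mean of THY1 was 1417 (CD90+/CD133+), 971 (CD90+/CD133-) and 76.2 (CD90-/CD133-), and that of PROM1 876, 42.2 and 21.4 in the same fractions, so both followed the sort. The summed intensity of 7 epithelial markers was 30740 to 42678 in CD90+/CD133+, 34355 to 46192 in CD90+/CD133- and 49659 to 62075 in CD90-/CD133- cells. Leukocyte markers (4 genes) summed to 179 to 270 in CD90+/CD133+, 188 to 246 in CD90+/CD133- and 148 to 166 in CD90-/CD133- cells. For fibroblast markers the sums were 275 to 335, 256 to 289 and 348 to 413, and for endothelial markers 110 to 132, 99.7 to 117 and 97.6 to 116, in the same order of fractions. PTPRC, COL3A1, LUM, PDGFRA, CDH5 and KDR lay at the floor on all arrays, but some other markers changed. Against CD90-/CD133- cells, 1 leukocyte gene was called higher in each CD90+ fraction (largest changes of the list 1.00 in CD90+/CD133+ and 0.96 in CD90+/CD133-). Of the fibroblast genes, 1 was called higher and 1 lower in each (list range −1.98 to 0.26 and −2.02 to 0.33). Between the CD90+ fractions 1 fibroblast gene was called higher. No endothelial gene was called. One array stood apart for the genes of this set: CD90+/CD133- replicate 5 read lowest of its fraction for most mitotic genes, and counts are also given without it.

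Set against CD90+/CD133- cells, CD90+/CD133+ cells had higher levels of 4 of the 45 genes (CENPA, AURKB, UBE2C and CDK1, all of G2 and mitosis) and a lower level of 1, CDK6. Over all genes 2.3% were called higher and 2.31% lower, and over expressed genes (mean log2 intensity of at least 6) 4.24% and 3.77%. The median log2 change of the 45 genes was 0.22, against 0.00 over the 9988 expressed genes, and 33 of 45 were above 0. Without CD90+/CD133- replicate 5 the calls fell to 3 higher and none lower, with a median of 0.13. Of all genes, 254 were then called higher and 256 lower. Without the 3 arrays of replicate 5 no member was called, while 69 genes of all were called higher and 92 lower. At an unadjusted p under 0.05, 18 of the 45 members and 4365 of all genes passed.

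In CD90+/CD133- against CD90-/CD133- cells, 2 members were higher (E2F3 and TPX2) and 13 lower, with a median log2 change of −0.18. Here 14.8% of all genes were called higher and 17.6% lower, so the 13 of 45 exceeded the share over all genes and the 2 of 45 fell short of it. In CD90+/CD133+ against CD90-/CD133- cells, 10 members were higher and 8 lower, where 14.2% of all genes were called higher and 17% lower, and the median was 0.00. Without CD90+/CD133- replicate 5 the counts were 7 higher and 13 lower (median −0.08) in CD90+/CD133- cells, and 13 higher and 11 lower in CD90+/CD133+ cells, against CD90-/CD133- cells. Of all 19775 genes in that setting, 2924 were called higher and 3346 lower, then 3003 and 3526. Later counts without that array are to be read beside these. With all arrays, the shares called among expressed genes were 25.3% higher and 27.5% lower for CD90+/CD133- cells, and 24.6% higher and 26% lower for CD90+/CD133+ cells. The members' counts in both comparisons with CD90-/CD133- cells were thus near or under those of expressed genes. The 3 comparisons share arrays and are not independent of each other. In bulk RNA, fewer cells of a cell cycle phase and less RNA per cell cannot be told apart.

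The 18 mitotic members and the 9 replication members differed in pattern. Averaged over its 18 genes, the mitotic log2 level of replicates 1 to 5 was 10.22, 10.24, 10.39, 10.37 and 10.33 in CD90+/CD133+, 10.03, 9.97, 9.92, 10.08 and 8.99 in CD90+/CD133-, and 10.15, 9.86, 9.99, 9.82 and 9.65 in CD90-/CD133- cells. Every CD90+/CD133+ array lay above every array of both other fractions. The replication level of the same replicates was 9.80, 10.08, 10.08, 10.07 and 9.98 in CD90+/CD133+, 9.97, 10.20, 9.89, 10.09 and 9.57 in CD90+/CD133-, and 10.15, 10.34, 10.43, 10.49 and 10.41 in CD90-/CD133- cells. Here CD90-/CD133- cells were highest in each replicate, and the CD90+ fractions overlapped one another.

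**Figure D1:**
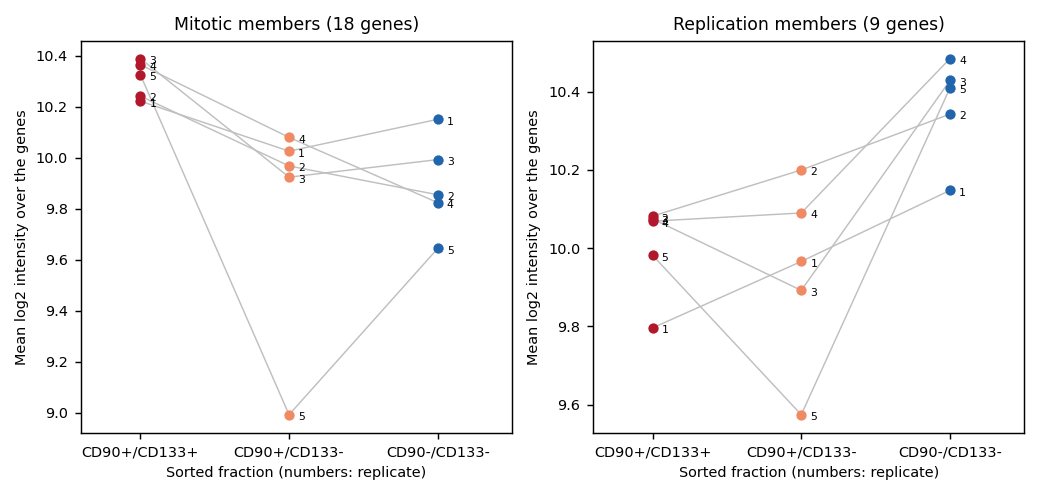
Mean log2 intensity of the 18 mitotic members and of the 9 replication members on each of the 15 arrays, by fraction, with lines joining arrays of the same replicate number. The CD90+/CD133+ arrays sit highest for the mitotic members, the CD90-/CD133- arrays sit highest for the replication members within each replicate, and CD90+/CD133- replicate 5 is the lowest array in both.

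By count, all 18 mitotic members had a log2 change above 0 in CD90+/CD133+ against CD90+/CD133- cells (4 called, median 0.41), and 11 were higher in each of the 5 pairs, where 16.4% of expressed genes were. The 4 called were 22.2% of the 18, where 2.3% of all and 4.24% of expressed genes were called higher. The median over the 18 genes was 0.20, 0.19, 0.36, 0.16 and 1.27 in pairs 1 to 5, so the fifth pair, which holds the array that stood apart, had the widest gap. Without that array 17 of 18 were above 0 with a median of 0.26. In CD90+/CD133+ against CD90-/CD133- cells 8 of the 18 (44.4%) were called higher and none lower (median 0.36), and in CD90+/CD133- against CD90-/CD133- cells 1 was called higher (5.56%) and 3 lower (16.7%, median −0.06). The shares called higher and lower were 14.2% and 17% of all genes and 24.6% and 26% of expressed genes in the first comparison. In the second they were 14.8% and 17.6% of all and 25.3% and 27.5% of expressed genes. Without CD90+/CD133- replicate 5 the median of that last comparison was 0.11, with 6 called higher and 3 lower, so its sign rests on that array, and CD90+/CD133+ cells had 10 called higher and none lower against CD90-/CD133- cells. Of the 9 replication members none was called higher in any comparison. Against CD90-/CD133- cells, 6 were called lower in CD90+/CD133- cells (median −0.39) and 5 in CD90+/CD133+ cells (median −0.42), where 7 were lower in every pair, against 29.7% of expressed genes. The called genes were 66.7% and 55.6% of the 9. Of all genes 17.6% and 17% were called lower, and of expressed genes 27.5% and 26%. Between CD90+/CD133+ and CD90+/CD133- cells no replication member was called, with a median of 0.04. Leaving out the array that stood apart, these replication counts were 5 lower in CD90+/CD133- and 7 lower in CD90+/CD133+ against CD90-/CD133- cells, and the median between the CD90+ fractions was −0.02.

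**Figure D2:**
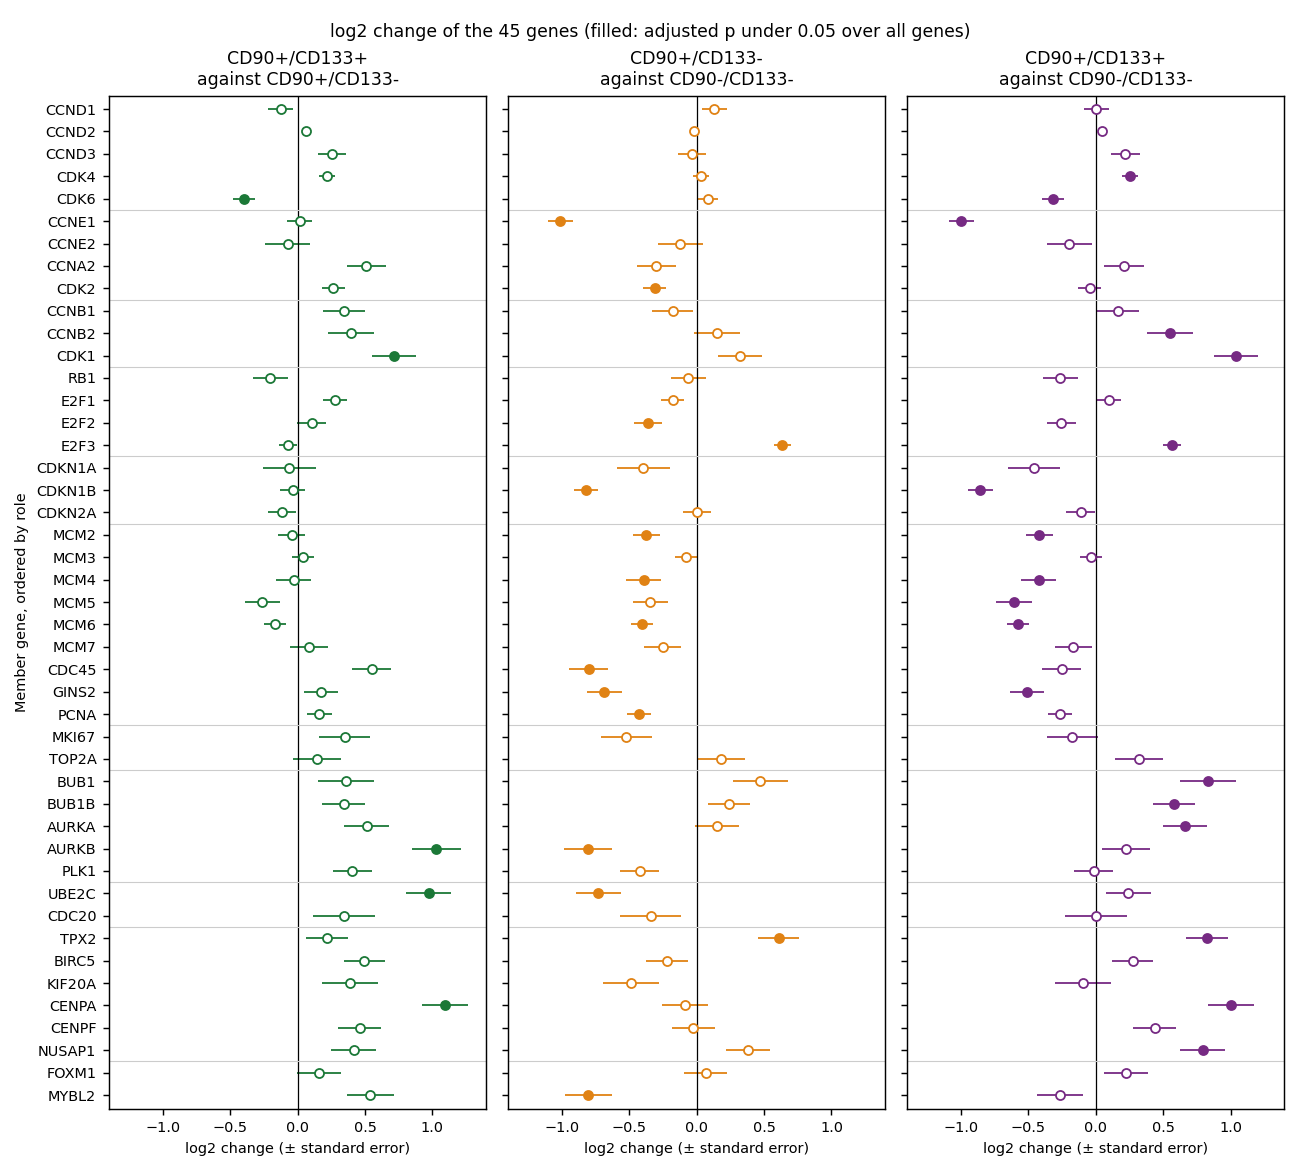
Log2 change of each of the 45 genes in the 3 comparisons, with bars of 1 SE from limma. Filled points passed an adjusted p under 0.05. All 18 mitotic genes lie right of 0 against CD90+/CD133- cells and 14 of 18 in CD90+/CD133+ against CD90-/CD133- cells, and replication genes run to the left of 0 in both comparisons with CD90-/CD133- cells.

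The promoters of these 2 classes were read for sequence motifs, which the choice of genes did not use. RefSeq promoters on GRCh38.p14 (250 bases before to 50 after a start site) were found for 34 of the 45 genes, as 46 promoters, of which 15 belong to 13 mitotic genes and 12 to 7 replication genes. Promoters of 1 gene can overlap and share bases. The cell cycle homology region (CHR), searched as TTTGAA or TTTAAA on both strands, is an element through which mitotic genes are held down outside G2. It was present in 73.3% of the mitotic promoters and 8.33% of the replication promoters, against 24% of all 35116 promoters. The E2F site, searched as TTTCCCGC or TTTGGCGC on both strands, was present in 41.7% of the replication and 13.3% of the mitotic promoters, against 2.27% of all. The CCAAT box, bound by NF-Y, stood in 86.7% of the mitotic and 83.3% of the replication promoters, against 34.6% of all. The 120 bases before the start site of 4 called mitotic genes and 2 called replication genes follow, with motif matches in capitals. They were picked because they show both layouts. Among other called genes, the promoters of AURKB, BUB1 and MYBL2 held no CHR match, and those of MCM2 and CDC45 no E2F match. On the other strand the CCAAT box reads ATTGG and one E2F site reads GCGGGAAA.
CCNB2 (chr15:59105026-59105145, plus strand): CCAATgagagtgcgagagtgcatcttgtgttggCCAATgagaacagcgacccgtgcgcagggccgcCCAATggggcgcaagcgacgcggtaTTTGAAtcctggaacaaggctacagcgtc
NUSAP1 (chr15:41332761-41332880, plus strand): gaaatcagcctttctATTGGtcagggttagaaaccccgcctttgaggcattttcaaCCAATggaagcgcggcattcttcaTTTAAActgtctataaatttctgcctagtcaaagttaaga
CENPA (chr2:26785936-26786055, plus strand): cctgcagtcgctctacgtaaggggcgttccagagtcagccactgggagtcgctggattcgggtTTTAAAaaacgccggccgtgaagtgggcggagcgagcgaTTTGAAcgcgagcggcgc
BUB1B (chr15:40160949-40161068, plus strand): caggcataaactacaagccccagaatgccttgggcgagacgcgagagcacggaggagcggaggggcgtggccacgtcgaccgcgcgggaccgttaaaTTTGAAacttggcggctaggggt
MCM6 (chr2:135876444-135876563, minus strand): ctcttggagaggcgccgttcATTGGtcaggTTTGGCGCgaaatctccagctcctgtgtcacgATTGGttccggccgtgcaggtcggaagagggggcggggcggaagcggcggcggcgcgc
GINS2 (chr16:85688955-85689074, minus strand): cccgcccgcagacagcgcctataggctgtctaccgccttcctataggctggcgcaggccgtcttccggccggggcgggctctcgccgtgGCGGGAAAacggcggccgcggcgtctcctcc

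In the 4 mitotic promoters a CHR match begins 29 (CCNB2), 40 (NUSAP1), 57 and 18 (CENPA) and 23 (BUB1B) bases before the start, and in CCNB2 3 CCAAT boxes precede it at 120, 87 and 54 bases. The E2F match lies 90 bases before the start in MCM6, with another at 152 bases outside the stretch shown, and 31 bases before it in GINS2. A match is a run of letters and not a measured binding site.

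**Figure D3:**
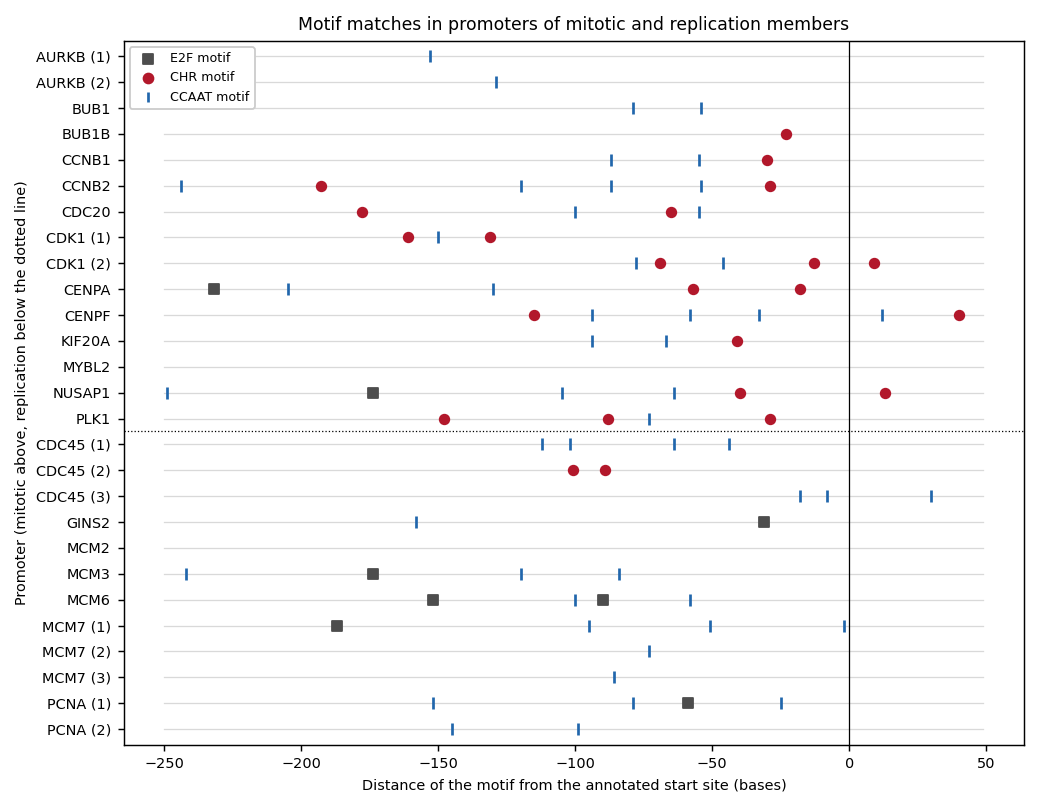
Position of CHR, CCAAT and E2F matches relative to the start site in the 15 promoters of mitotic members (above) and the 12 of replication members (below), in bases. CHR matches stand in 73.3% of the mitotic and 8.33% of the replication promoters, and E2F matches in 13.3% and 41.7%.

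CENPA, AURKB and UBE2C had the largest log2 changes of the set between CD133+ and CD133- cells within the CD90+ gate. CENPA is the histone H3 variant that marks the centromere. It read 542, 701, 784, 779 and 785 on CD90+/CD133+ replicates 1 to 5, 329.9, 393, 361, 401 and 220.2 on CD90+/CD133- replicates, and 404, 376, 339.7, 321 and 338 on CD90-/CD133- replicates. Every CD90+/CD133+ array was above every other array, and the CD133- fractions overlapped. The log2 change was 1.09 (2.13-fold, SE 0.17, adjusted p = 0.0193) against CD90+/CD133- cells and 1.00 (adjusted p = 0.00202) against CD90-/CD133- cells, and −0.09 (adjusted p = 0.871) between the CD133- fractions.

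AURKB, the kinase of the chromosomal passenger complex that corrects spindle attachments, read 292, 283, 328, 317 and 291 in CD90+/CD133+, 218, 164, 149.6, 155 and 85.0 in CD90+/CD133-, and 355, 283, 226, 222 and 230.0 in CD90-/CD133- cells. The CD90+/CD133- arrays were all below both other fractions. The log2 change was 1.03 (SE 0.18, adjusted p = 0.0230) in CD90+/CD133+ against CD90+/CD133- cells and −0.81 (SE 0.18, adjusted p = 0.00798) in CD90+/CD133- against CD90-/CD133- cells. A dimmer AURKB probe set gave 0.43 and 0.01 in these comparisons. With the mean of its probe sets, the call in CD90+/CD133- against CD90-/CD133- cells was lost. UBE2C, the enzyme that supplies ubiquitin for the targets of the anaphase-promoting complex, had the same order of fractions as AURKB. Its intensities were 4102, 3433, 4418, 3567 and 4652 in CD90+/CD133+, 2648, 1993, 2399, 2054 and 1368 in CD90+/CD133-, and 4477, 3861, 3387, 2619.6 and 2919 in CD90-/CD133- cells. All CD90+/CD133+ arrays exceeded all CD90+/CD133- arrays, while the CD133- fractions touched at 1 array each. The log2 change was 0.97 (adjusted p = 0.0226) between the CD90+ fractions and −0.73 (adjusted p = 0.00904) for CD90+/CD133- against CD90-/CD133- cells. Neither gene was called in CD90+/CD133+ against CD90-/CD133- cells (0.22, adjusted p = 0.451 for AURKB, and 0.24, adjusted p = 0.363 for UBE2C).

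These 3 calls held without CD90+/CD133- replicate 5, with log2 changes of 0.93 for CENPA (adjusted p = 0.0286), 0.86 for AURKB (adjusted p = 0.0339) and 0.83 for UBE2C (adjusted p = 0.0374). When single arrays or replicate numbers were left out, the log2 change stayed between 0.91 and 1.21 for CENPA, 0.84 and 1.18 for AURKB and 0.77 and 1.06 for UBE2C. Each of the 3 calls was lost without replicate number 2, 3, 4 or 5 (adjusted p of 0.0509 to 0.106 for CENPA, 0.0581 to 0.124 for AURKB and 0.0527 to 0.114 for UBE2C). Among single arrays, the calls of all 3 genes were lost without CD90+/CD133+ replicate 3 or 4 or CD90+/CD133- replicate 4. CENPA and AURKB were also lost without CD90+/CD133+ replicate 5, AURKB without CD90+/CD133- replicate 3 and UBE2C without CD90+/CD133- replicate 2, and over all these arrays the highest adjusted p was 0.0629 for CENPA, 0.0719 for AURKB and 0.0688 for UBE2C.

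CDK1, the kinase that starts mitosis, read 2723, 3313, 2438, 3097 and 3384 in CD90+/CD133+, 2005, 1801, 1982, 2097 and 1281 in CD90+/CD133-, and 1668, 1419, 1592, 1199 and 1391 in CD90-/CD133- cells. The CD90+/CD133+ arrays lay above all others. Its log2 change was 1.04 against CD90-/CD133- cells (adjusted p = 0.00137), a call that held whichever array or replicate number was left out. Against CD90+/CD133- cells it was 0.72 (SE 0.16, adjusted p = 0.0472), and that call was lost without any 1 of 14 of the 15 arrays (adjusted p of 0.0556 to 0.119), CD90+/CD133- replicate 5 among them. Of its cyclin partners, CCNB2 was higher in CD90+/CD133+ cells than CD90-/CD133- cells (0.55, adjusted p = 0.0396), at 3084 to 4479 against 2435 to 2852, with no overlap, a call that was lost without any 1 of 12 of the 15 arrays or 4 of the 5 replicate numbers. CCNB1 gave 0.34 (adjusted p = 0.241) against CD90+/CD133- cells and 0.16 (adjusted p = 0.544) against CD90-/CD133- cells. Another CCNB1 probe set (mean log2 intensity 10.29 against 11.57) gave 0.28 and 0.51 in these comparisons. In CD90+/CD133- against CD90-/CD133- cells it gave 0.23, against −0.18 for the probe set used.

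**Figure D4:**
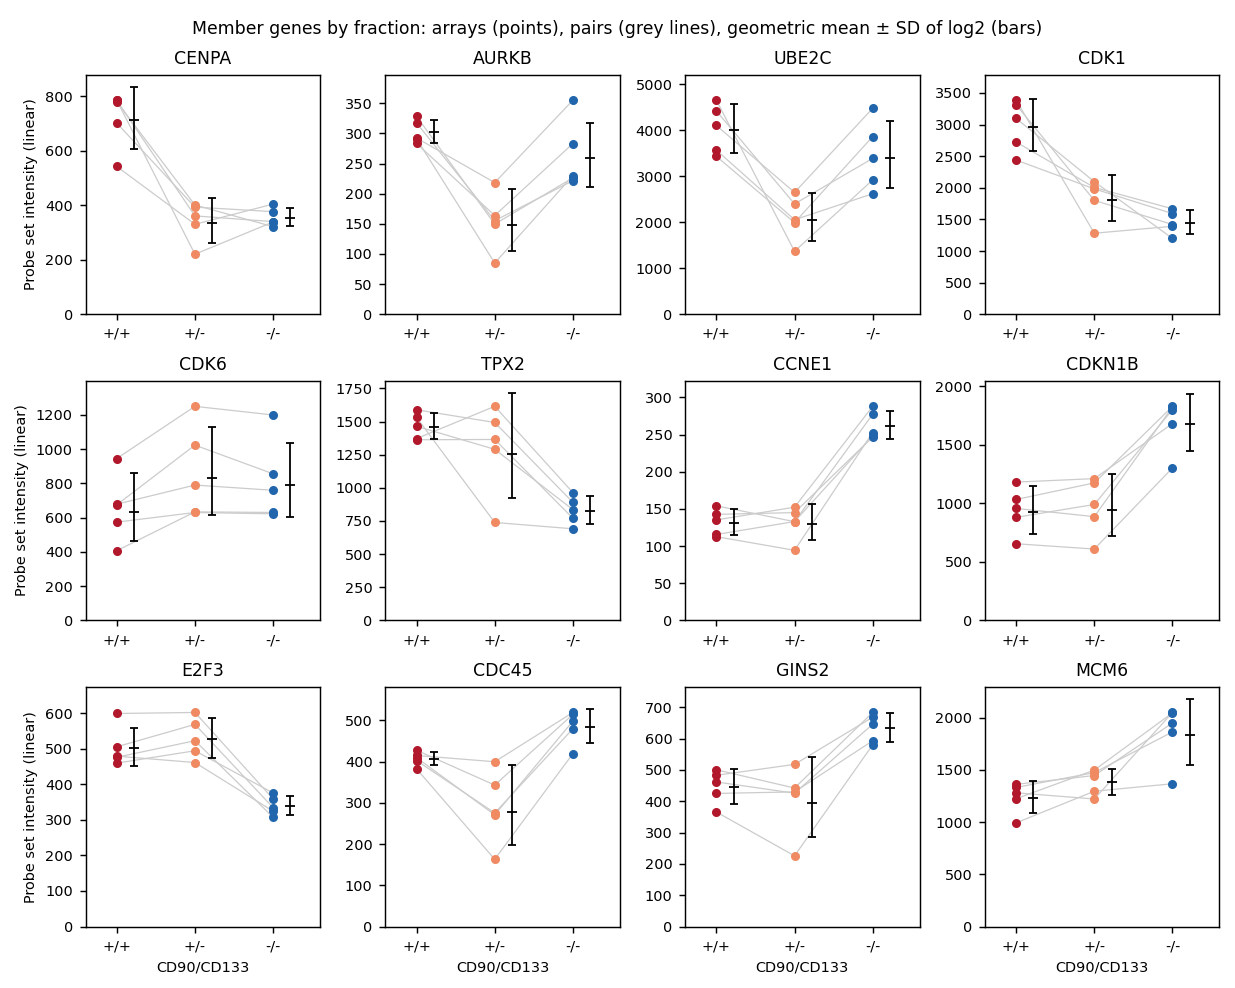
Intensity of 12 members on every array, on a linear axis that starts at 0, by fraction, with the geometric mean and a bar of 1 SD of the log2 values. CENPA and CDK1 are highest in CD90+/CD133+ cells, AURKB and UBE2C are lowest in CD90+/CD133- cells, and CCNE1, CDKN1B and E2F3 separate both CD90+ fractions from CD90-/CD133- cells.

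Several spindle and checkpoint genes were higher in CD90+/CD133+ cells than CD90-/CD133- cells without a call between the CD90+ fractions. TPX2, which activates AURKA on spindle microtubules, read 1372, 1363, 1464, 1589 and 1531 in CD90+/CD133+, 1615, 1365, 1291, 1493 and 739 in CD90+/CD133-, and 964, 770.4, 836, 890.4 and 691 in CD90-/CD133- cells. Apart from CD90+/CD133- replicate 5, every CD90+ array was above every CD90- array. TPX2 was called higher in both CD90+ fractions, by 0.82 (adjusted p = 0.00351) in CD90+/CD133+ and 0.61 (adjusted p = 0.0156) in CD90+/CD133- cells. The second call was lost without replicate number 2, 3 or 4. NUSAP1, a microtubule-bundling spindle protein, read 2412, 2692, 2851, 3126 and 3379 in CD90+/CD133+, 2078, 2262, 2523, 2792 and 1403 in CD90+/CD133-, and 1613, 1584, 1897, 1538 and 1668 in CD90-/CD133- cells. All CD90+/CD133+ arrays were above the CD90-/CD133- arrays, with a log2 change of 0.79 (adjusted p = 0.00618).

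BUB1, a spindle checkpoint kinase, read 813, 806, 662, 804 and 681 in CD90+/CD133+, 716, 760.0, 603, 822 and 253 in CD90+/CD133-, and 553, 402, 474, 435 and 289 in CD90-/CD133- cells. The change in CD90+/CD133+ against CD90-/CD133- cells was 0.83 (adjusted p = 0.0145), with no overlap, a call lost without replicate number 2 or 4. AURKA, the kinase of centrosomes and spindle poles, read 1993, 1795, 1868, 1879 and 1782 in CD90+/CD133+, 1540.0, 1382, 1497, 1574 and 756 in CD90+/CD133-, and 1692, 1098, 1438, 954 and 885 in CD90-/CD133- cells. The CD90+/CD133+ arrays were above all others, with a change of 0.66 (adjusted p = 0.0151) against CD90-/CD133- cells and 0.51 (adjusted p = 0.115) against CD90+/CD133- cells. The AURKA call against CD90-/CD133- cells was lost without replicate number 2 or 4. BUB1B, a subunit of the mitotic checkpoint complex, was higher in CD90+/CD133+ cells than CD90-/CD133- cells by 0.58 (adjusted p = 0.0220), a call lost without any 1 of 6 of the 15 arrays. Without CD90+/CD133- replicate 5, BUB1 (0.69, adjusted p = 0.00572), BUB1B (0.39, adjusted p = 0.0423), NUSAP1 (0.57, adjusted p = 0.00229), CCNB2 and CDK1 were also called higher in CD90+/CD133- cells than CD90-/CD133- cells, so that 7 members were called higher there in place of 2. With all arrays, the CDK1 probe set used gave 0.32 in that comparison, while its other probe sets gave −0.29, −0.12 and −0.08.

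The other mitotic genes were not called in CD90+/CD133+ cells. BIRC5 (survivin, of the passenger complex) gave 0.50 against CD90+/CD133- cells (adjusted p = 0.104) with every CD90+/CD133+ array above every CD90+/CD133- array. CENPF, a kinetochore protein, gave 0.46 (adjusted p = 0.135), PLK1, a kinase acting through all of mitosis, 0.41 (adjusted p = 0.149), KIF20A, a kinesin of cytokinesis, 0.39 (adjusted p = 0.334), and CDC20, which activates the anaphase-promoting complex, 0.34 (adjusted p = 0.467). FOXM1, a transcription factor that switches on mitotic genes, gave 0.16 (adjusted p = 0.701). MYBL2, which acts with it at CHR-bearing promoters, read 594, 642, 727, 613 and 623 in CD90+/CD133+, 598, 497, 392, 549 and 256 in CD90+/CD133-, and 833, 731, 867, 786 and 642 in CD90-/CD133- cells. All CD90+/CD133- arrays were below the CD90-/CD133- arrays, with a change of −0.80 (adjusted p = 0.00689), while CD90+/CD133+ cells gave −0.27 (adjusted p = 0.328) against CD90-/CD133- cells. MYBL2 was lower in each of the 5 pairs in both comparisons. It was counted among the mitotic members by its role, not by when its RNA peaks.

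Every replication gene that was called was lower in CD90+ cells. CDC45, a subunit of the replicative helicase, read 415, 427, 409.5, 402 and 382 in CD90+/CD133+, 399.6, 343, 271, 275 and 163 in CD90+/CD133-, and 519, 515, 498, 479.6 and 419 in CD90-/CD133- cells. CD90+/CD133- arrays were all below CD90-/CD133- arrays, with a change of −0.80 (adjusted p = 0.00280). CD90+/CD133+ cells lay between, with 0.55 (adjusted p = 0.0697) against CD90+/CD133- cells and −0.25 (adjusted p = 0.256) against CD90-/CD133- cells. GINS2, of the GINS complex that joins the helicase, read 425, 483, 462, 500.3 and 366 in CD90+/CD133+, 429.8, 517, 426, 442 and 226 in CD90+/CD133-, and 593, 668, 646, 683 and 580.0 in CD90-/CD133- cells. Both CD90+ fractions were below the CD90-/CD133- arrays with no overlap, by −0.51 (adjusted p = 0.0151) in CD90+/CD133+ and −0.69 (adjusted p = 0.00328) in CD90+/CD133- cells.

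Among the 6 genes of the MCM helicase ring, MCM6 had the smallest adjusted p, with changes of −0.58 (adjusted p = 7.33e-04) in CD90+/CD133+ and −0.41 (adjusted p = 0.00456) in CD90+/CD133- against CD90-/CD133- cells. It ranged over 993 to 1362 in CD90+/CD133+, 1221 to 1498 in CD90+/CD133- and 1367 to 2049.7 in CD90-/CD133- cells. MCM2 (−0.42 and −0.37) and MCM4 (−0.42 and −0.39) were called lower in both CD90+ fractions, and MCM5 (−0.61, adjusted p = 0.00755) in CD90+/CD133+ cells. The MCM4 call was lost without any 1 of 13 of the 15 arrays in CD90+/CD133- cells (−0.29, adjusted p = 0.100 without CD90+/CD133- replicate 5) and 9 of 15 in CD90+/CD133+ cells, and the MCM2 call without any 1 of 3 arrays in CD90+/CD133- cells. MCM3 and MCM7 were not called. PCNA, the sliding clamp of DNA polymerases, was lower in CD90+/CD133- cells at 4178 to 5432 against 5726 to 7322, with no overlap (−0.43, adjusted p = 0.00653), and gave −0.27 (adjusted p = 0.0565) in CD90+/CD133+ cells. The MCM6, CDC45, GINS2 and PCNA calls in CD90+/CD133- cells held whichever array or replicate number was left out. In CD90+/CD133+ cells the GINS2 call was lost without replicate number 1, 3 or 4, and the MCM2 and MCM5 calls without replicate number 4.

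CCNE1, the cyclin that drives entry into S phase with CDK2, had the largest difference of the set between CD90+/CD133- and CD90-/CD133- cells. It read 135, 116, 154, 143 and 113 in CD90+/CD133+, 152, 132.999, 132.8, 145 and 94.3 in CD90+/CD133-, and 288, 248, 277, 247 and 253 in CD90-/CD133- cells. The CD90+ fractions overlapped and both lay under the CD90-/CD133- arrays. The log2 change was −0.9996 (adjusted p = 7.81e-05) in CD90+/CD133+ and −1.01 (SE 0.09, adjusted p = 7.05e-05) in CD90+/CD133- against CD90-/CD133- cells, and 0.01 (adjusted p = 1) between the CD90+ fractions. CCNE2, its paralog, was not called, with −0.20 (adjusted p = 0.485) and −0.12 (adjusted p = 0.735) in the same comparisons with CD90-/CD133- cells. CDK2 was lower in CD90+/CD133- cells than CD90-/CD133- cells by −0.31 (adjusted p = 0.0191), at 363 to 502 against 518 to 588, with no overlap. The CDK2 call was lost without replicate number 2, 3 or 4, and without CD90-/CD133- replicate 1. CCNA2, the cyclin of S phase and G2, gave 0.51 (adjusted p = 0.0859) in CD90+/CD133+ against CD90+/CD133- cells, with no overlap between the fractions.

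CDK6, a partner of the D cyclins in G1, was the member that ran against the mitotic genes in CD90+/CD133+ cells. Its intensity was 945, 678, 574, 675 and 407 in CD90+/CD133+, 1249, 789.9, 629.8, 1023 and 633 in CD90+/CD133-, and 1199, 759, 622, 855 and 630.1 in CD90-/CD133- cells. The fractions overlapped, but the CD90+/CD133+ array was lowest within each of the 5 replicate numbers. The change was −0.40 (SE 0.08, adjusted p = 0.0340) against CD90+/CD133- cells and −0.32 (adjusted p = 0.0150) against CD90-/CD133- cells, and the first call was lost without any 1 of 12 of the 15 arrays (adjusted p of 0.0508 to 0.0955). The second call was lost without replicate number 1 or 5. Other probe sets of CDK6 disagreed with each other in the comparison with CD90-/CD133- cells, with 4 of 6 above 0 (1.27, 0.71, 0.15 and 0.07) and 2 below (both −0.27). Between the CD90+ fractions 5 of the 6 were below 0 and 1 was at 0.03. CDK4, the other G1 kinase, was higher in CD90+/CD133+ cells than CD90-/CD133- cells by 0.25 (adjusted p = 0.0119), a call lost without replicate number 4. The D cyclins CCND1 and CCND3 were not called in any comparison, and CCND2 lay at 16 to 18.0 on all arrays, at or just above the floor.

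E2F3, an activating E2F factor, was higher in both CD90+ fractions. It read 599, 476, 459, 505 and 479 in CD90+/CD133+, 602, 522, 494, 568 and 461 in CD90+/CD133-, and 359, 307, 375, 334 and 324 in CD90-/CD133- cells. All CD90+ arrays were above all CD90-/CD133- arrays, by 0.56 (adjusted p = 2.43e-04) in CD90+/CD133+ and 0.64 (adjusted p = 1.24e-04) in CD90+/CD133- cells. A dimmer E2F3 probe set gave 0.18 and 0.61 in these comparisons. Between the CD90+ fractions it gave −0.43, against −0.07 for the probe set used. E2F2 was lower in CD90+/CD133- cells than CD90-/CD133- cells (−0.36, adjusted p = 0.0306). That call was lost without any 1 of 7 of the 15 arrays, CD90+/CD133- replicate 5 among them, or 4 of the 5 replicate numbers. It was also lost with no replicate block and with the mean of its probe sets. E2F1 and RB1, the retinoblastoma protein gene, were not called.

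Of the 3 CDK inhibitors, CDKN1B (p27) was lower in both CD90+ fractions. It read 655, 956, 1033, 880.4 and 1181 in CD90+/CD133+, 609.6, 886, 1174, 990.0 and 1211 in CD90+/CD133-, and 1303, 1823, 1828, 1801 and 1681 in CD90-/CD133- cells. No CD90+ array reached a CD90-/CD133- array. The changes were −0.86 (adjusted p = 1.68e-04) and −0.82 (adjusted p = 2.07e-04), with −0.04 (adjusted p = 1) between the CD90+ fractions. CDKN1A (p21), a target of p53, read 202, 140.3, 102, 108 and 112 in CD90+/CD133+, 189.8, 98.7, 114, 93.3 and 218 in CD90+/CD133-, and 289, 162, 149, 159 and 154 in CD90-/CD133- cells. CD90+/CD133- replicate 5 was the highest of its fraction, and the fractions overlapped. The change in CD90+/CD133- against CD90-/CD133- cells was −0.40 (adjusted p = 0.175) with that array and −0.62 (adjusted p = 0.00166) without it. CDKN2A (p16) read 35.6, 28.5, 33.8, 28.6 and 29.995 in CD90+/CD133+, 32.1, 33.7, 35.8, 38.5 and 29.4 in CD90+/CD133-, and 33.4, 38.0, 30.5, 31.3 and 36.0 in CD90-/CD133- cells. These values were under the level counted as expressed and overlapped, with no call.

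The proliferation markers did not pass the test in any comparison with all arrays. MKI67, the gene of the Ki-67 protein on mitotic chromosomes, read 532, 391, 438, 504 and 351.2 in CD90+/CD133+, 528, 388, 364, 455 and 142 in CD90+/CD133-, and 676, 477, 552, 471 and 350.7 in CD90-/CD133- cells. The fractions overlapped. The change was 0.35 (SE 0.19, adjusted p = 0.344) in CD90+/CD133+ against CD90+/CD133- cells and −0.52 (adjusted p = 0.0686) in CD90+/CD133- against CD90-/CD133- cells, where it was −0.30 (adjusted p = 0.0374) without CD90+/CD133- replicate 5. TOP2A, the DNA topoisomerase of dividing cells, read 2368, 3105, 3043, 3156 and 3502 in CD90+/CD133+, 2850.3, 2791, 3309, 3282 and 1743 in CD90+/CD133-, and 2551, 2468, 2737, 2065 and 2278 in CD90-/CD133- cells. The changes were 0.14 (adjusted p = 0.792) between the CD90+ fractions and 0.32 (adjusted p = 0.232) in CD90+/CD133+ against CD90-/CD133- cells. Another TOP2A probe set, nearly as bright (mean log2 intensity 10.88 against 11.40), gave larger changes of 0.66 and 0.60.

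Genes outside the set were read from lists of the same pathways. Of 50 further genes of G2 and mitosis, all 50 had a log2 change above 0 in CD90+/CD133+ against CD90+/CD133- cells (5 called, median 0.45), and 49 did without CD90+/CD133- replicate 5 (5 called, median 0.25). With all arrays the 5 called higher were 10% of the list, where 2.3% of all and 4.24% of expressed genes were. HJURP, the chaperone that loads CENPA onto centromeres, was higher by 0.86 (adjusted p = 0.0449), CDCA8 of the passenger complex by 0.70 (adjusted p = 0.0363) and CKS1B, a CDK-binding protein, by 0.57 (adjusted p = 0.0183). Against CD90-/CD133- cells, 20 of the 50 were higher and 2 lower in CD90+/CD133+ cells (40% and 4%). Of all genes 14.2% and 17% were, and of expressed genes 24.6% and 26%. ARHGAP11A (1.504), CDCA8 (1.35) and PRC1 (1.29) changed most upward, and SPC25 (−0.72) and CDC25B (−0.63) downward. In CD90+/CD133- against CD90-/CD133- cells 7 were higher (14%), led by ARHGAP11A (1.27), ECT2 (1.01) and ASPM (0.86). Another 9 were lower (18%), led by SPC25 (−1.53), HMMR (−1.03) and CDC25B (−0.85), and the median was −0.11. These shares were near the 14.8% and 17.6% of all genes and under the 25.3% and 27.5% of expressed genes. Leaving out CD90+/CD133- replicate 5 gave 11 higher and 8 lower with a median of 0.095, so the sign of the median rests on that array. The call of CDCA8 between the CD90+ fractions was then lost (0.58, adjusted p = 0.0586), and 29 genes were higher and 4 lower in CD90+/CD133+ against CD90-/CD133- cells. Of all 19775 genes in that setting, 3003 were higher and 3526 lower in CD90+/CD133+ cells, and 2924 and 3346 in CD90+/CD133- cells.

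Of 33 further S phase genes none was called between the CD90+ fractions with all arrays, and DTL (−0.49, adjusted p = 0.0312) and MCM10 (−0.24, adjusted p = 0.0487) were called lower in CD90+/CD133+ cells without CD90+/CD133- replicate 5. In CD90+/CD133- against CD90-/CD133- cells 11 of 33 were lower (33.3%, where 17.6% of all and 27.5% of expressed genes were). Among them were GINS4 (−0.85, adjusted p = 4.56e-04), RFC3 of the clamp loader (−0.80, adjusted p = 5.94e-04) and RRM1 of ribonucleotide reductase (−0.78, adjusted p = 9.09e-04). Another 2 were higher, RFC5 (0.78) and DBF4 (0.44), or 6.06%, where 14.8% of all and 25.3% of expressed genes were. CD90+/CD133+ cells had 10 lower (RFC3 −0.72, RRM1 −0.63, ORC6 −0.51) and 6 higher (RFC5 0.84, TYMS 0.75, RRM2 0.57) against CD90-/CD133- cells, so both directions occurred in this list. These were 30.3% lower and 18.2% higher, where 17% and 14.2% of all and 26% and 24.6% of expressed genes were. Without CD90+/CD133- replicate 5 the counts against CD90-/CD133- cells were 9 higher and 13 lower in CD90+/CD133+ cells, and 6 higher (TYMS, RRM2, MCM10 and RFC4 joining) and 11 lower in CD90+/CD133- cells.

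Of 36 further CDK, inhibitor, pocket protein and E2F genes, CDKN2D (p19) was higher (0.83, adjusted p = 0.0209) and TOB1, an antiproliferative gene, lower (−0.30, adjusted p = 0.0175) in CD90+/CD133+ against CD90+/CD133- cells. MYBL1, the germ line relative of MYBL2, had the largest change of this list, with means of 864 (CD90+/CD133+), 651 (CD90+/CD133-) and 101 (CD90-/CD133-) (3.09 and 2.68, adjusted p = 2.25e-04 and 4.86e-04). TFDP1, the dimer partner of E2F factors, was lower in both CD90+ fractions (−0.86 and −0.83, adjusted p = 1.52e-05 and 1.83e-05), as were MYB (−0.96 and −0.94) and E2F5 (−0.94 and −0.87). The list had 9 genes higher and 8 lower (25% and 22.2%) in CD90+/CD133+ against CD90-/CD133- cells, and 7 and 7 (19.4% each) in CD90+/CD133- cells. These shares were near or under those of expressed genes (24.6% and 26%, then 25.3% and 27.5%). They were above those of all genes (14.2% and 17%, then 14.8% and 17.6%). Of 23 p53 and DNA damage checkpoint genes, ZMAT3 (−0.51, adjusted p = 0.0407) and PPM1D (−0.33, adjusted p = 0.0226), both p53 targets, were lower in CD90+/CD133+ cells than CD90+/CD133- cells. The ZMAT3 call was lost without CD90+/CD133- replicate 5 (−0.41, adjusted p = 0.0571). Against CD90-/CD133- cells 7 were higher and 2 lower (30.4% and 8.7%) in CD90+/CD133+ cells, and 9 higher and 5 lower (39.1% and 21.7%) in CD90+/CD133- cells. The shares of expressed genes were 24.6% and 26%, then 25.3% and 27.5%. Without CD90+/CD133- replicate 5 the counts were 8 and 4 in CD90+/CD133+ cells and 10 and 5 in CD90+/CD133- cells. PLK2 (0.77 in each) and ATM (0.71 and 0.65) were higher, and DDB2, a damage sensor of nucleotide excision repair, was lower (−0.71 and −0.91).

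The chromosome surroundings of the members were set beside their changes, as the median log2 change of the 30 nearest expressed genes in chromosome order. These medians ran from −0.12 to 0.16 between the CD90+ fractions, but from −0.47 to 0.46 in CD90+/CD133+ and −0.51 to 0.49 in CD90+/CD133- against CD90-/CD133- cells. In CD90+/CD133+ against CD90+/CD133- cells, CENPA, AURKB, UBE2C and CDK1 thus changed beside neighbours with medians of no more than 0.16. In the comparisons with CD90-/CD133- cells, 15 of 18 called members in CD90+/CD133+ cells and 11 of 15 in CD90+/CD133- cells had neighbours with a median of the same sign, and every called member had a larger change than that median. CDKN1B, on chromosome 12, changed by −0.82 in CD90+/CD133- cells beside neighbours at −0.51. AURKB, UBE2C and MYBL2 changed by −0.81, −0.73 and −0.80 beside neighbours at −0.38, −0.35 and −0.37. CDK1, on chromosome 10, changed by 1.04 in CD90+/CD133+ cells beside neighbours at 0.46. CCNE1, on chromosome 19, changed by −1.01 in CD90+/CD133- cells beside neighbours at −0.02, MCM6 by −0.41 beside 0.16, TPX2 by 0.61 beside −0.06, and AURKA by 0.66 in CD90+/CD133+ cells beside −0.32. The part of the neighbourhood in these results was not tested.

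**Figure D5:**
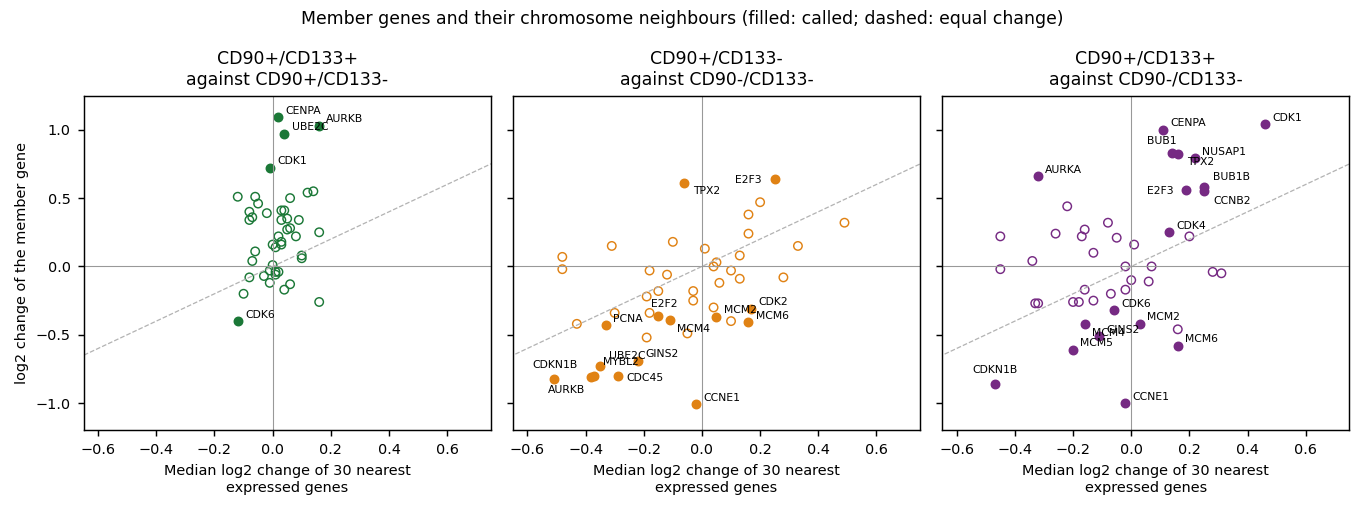
Log2 change of each member (vertical axis) against the median log2 change of its 30 nearest expressed genes (horizontal axis) in the 3 comparisons, with called members filled and named and a dashed line of equal change. Between the CD90+ fractions the neighbours stay within −0.12 to 0.16, while in the comparisons with CD90-/CD133- cells several called members, CDKN1B and CDK1 among them, lie beside neighbours that moved the same way.

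Signs of RNA quality were compared as the log2 gap between the 3′ and 5′ control probe sets. For ACTB it was 1.03 to 2.76 in CD90+/CD133+, 1.82 to 3.31 in CD90+/CD133- and 1.31 to 2.17 in CD90-/CD133- cells, and for GAPDH 0.01 to 0.12, 0.09 to 0.27 and 0.02 to 0.09 in the same order. CD90+/CD133- replicate 5 was within its fraction's range for both (2.19 and 0.22). Its gaps were above those of replicate 5 in CD90+/CD133+ (1.28 and 0.05) and CD90-/CD133- cells (1.31 and 0.03). The GAPDH gap was largest in CD90+/CD133- cells within every replicate number, and the ACTB gap within replicates 3, 4 and 5. Immediate early and stress genes that respond to handling of cells (8 measured) were also read. None was called between the CD90+ fractions, with a median log2 change of −0.13, and 4 of 8 (DUSP1, FOSB, IER2 and JUNB) were lower in each of the 5 pairs, where 14.7% of expressed genes were. ATF3, a stress-induced transcription factor, had the lowest value of the list, −1.28 (SE 0.58, adjusted p = 0.244), also the lowest among expressed genes in that comparison. Against CD90-/CD133- cells only IER2 was called, lower in both CD90+ fractions (−0.31 in CD90+/CD133+ and −0.15 in CD90+/CD133-). The summed intensity of the list ranged over 6150 to 15467.5 in CD90+/CD133+, 6482 to 16511 in CD90+/CD133- and 6539 to 15787 in CD90-/CD133- cells. The part of RNA quality and of handling in the differences of the mitotic genes was not tested.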

How the data were processed

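Total RNA of the sorted PEO1 fractions (15 arrays) was labelled and hybridised to Affymetrix HG-U133 Plus 2.0 arrays. Each deposited value is a linear intensity of 1 probe set, which the authors had normalized with the cross-correlation method, and no value is below 5. The sources used here do not give how probes were summarised. The number of arrays limits the precision. The methods called genes at 1.5-fold between averages and name no test for arrays.

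Intensities were floored at 16 before taking log2. Of 54675 probe sets, 62 controls, 1801 with several genes and 11721 with no listed gene were left out, and the brightest of the remaining 41091 stood for each of 19775 genes. Of the probe sets used, 41037 matched the RefSeq gene table of GRCh38.p14. limma 3.58.1 (R 4.3.3) was fitted to all 15 arrays with 3 fraction means and the replicate number as a block, 2-sided, with Benjamini-Hochberg adjustment over all genes. The replicate numbers come from the labels and were taken to pair the samples. Arrays of the same number deviated together (correlations of 0.37 to 0.85, 0.20 to 0.79 and 0.21 to 0.77 in the 3 pairs of fractions). Between different numbers the mean correlations were −0.12, −0.10 and −0.11, but the highest were 0.38, 0.19 and 0.23. Some arrays of different numbers thus matched about as well as the weakest arrays of the same number. The labels also hold a code, which replicates 4 and 5 share in every fraction. Its meaning is not given, and whether these replicates are independent was not tested. No 2 arrays held identical values. The fit was checked on simulated data.

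The members and all lists were chosen with earlier results of these data known. Per-array values are given for the 14 called members with the largest change, the 5 with the smallest p between the CD90+ fractions, and CCNE1, MKI67, TOP2A, CDKN1A and CDKN2A, with up to 3 called genes per direction from other lists. Alternatives were another floor, the mean of all probe sets, a filter on dim genes, no block, the label code as block, fits of 2 fractions only, a fold threshold, a t-test on each gene, and leaving out arrays and replicate numbers. Promoter motifs were counted with Python 3.11.15.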

Additional observations from a re-analysis of the deposited data

Results flagged for a closer look

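In 135 groups of 5 values (45 genes in 3 fractions), 18 had an array far from the other 4, where chance gives about 1 group in 20. Of these, 15 were low values on CD90+/CD133- replicate 5. They were the mitotic genes CCNB1 (1561), BUB1 (252.8), AURKA (755.7), CDC20 (764.7), TPX2 (738.8), BIRC5 (870.7), KIF20A (174.7), CENPF (349.8) and FOXM1 (874.2), the proliferation markers MKI67 (141.7) and TOP2A (1743), and the S phase genes CCNE1 (94.3), CCNE2 (158.1), CDK2 (362.9) and GINS2 (225.6). The other 3 were on CD90-/CD133- replicate 1, where CDKN1A was high at 288.9 (149.2 to 162.0 on the other arrays of the fraction), CDKN1B was low at 1303 (1681 to 1828) and MCM6 was low at 1367 (1864 to 2050).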

How the results depend on the processing

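In CD90+/CD133+ against CD90+/CD133- cells, the number of genes called was 912. The count was 196 with a 1.5-fold threshold added, 574 with a floor of 64, 422 with the label code as block, 95 with no replicate block, 1799 with only genes of mean log2 intensity of at least 6, 10 and 19 from the arrays of these 2 fractions without and with the block, and 0 with a t-test per gene, where 2188 genes had an unadjusted p under 0.05. It ranged over 0 (without replicate number 4) to 1023 (without CD90+/CD133+ replicate 1) when arrays or replicate numbers were left out. The 4 members called higher became 2 with no replicate block, 13 with the filter on dim genes, and 0 with both 2-fraction fits and the t-test (0 to 5 in the leave-outs). The 1 called lower became 0 with the fold threshold, the label code, no block, both 2-fraction fits and the t-test (0 to 1 in the leave-outs). With the label code as block, the call of CDK1 was lost as well. The cause was not tested.

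In CD90+/CD133- against CD90-/CD133- cells, 6399 genes were called, 2626 with the fold threshold, 3749 from 2 fractions with no block and 3473 with the t-test (4871 to 6367 in the leave-outs). The 2 members higher became 4 with the mean of all probe sets, 4 with the filter and 1 each with the 2-fraction fit with no block and the t-test (1 to 7), and the 13 lower became 7 with the fold threshold and 6 with the t-test (9 to 15). In CD90+/CD133+ against CD90-/CD133- cells, 6163 genes were called, 2518 with the fold threshold, 4060 with no replicate block, 4032 from 2 fractions with no block and 3761 with the t-test (4746 to 6529). The 10 members higher became 6 with the fold threshold and 6 with the label code (5 to 13), and the 8 lower became 3, 5 and, with no replicate block, 5 (4 to 11). The median member change was 0.22 (0.09 to 0.31 in the leave-outs), −0.18 (−0.25 to −0.08) and 0.00 (−0.08 to 0.04) in the 3 comparisons. CDK6 in CD90+/CD133+ against CD90-/CD133- cells changed by 0.19 with the mean of its probe sets (adjusted p = 0.0124), against −0.32 with its brightest. With no replicate block, 41 of the 51 single-gene results examined kept their direction and side of the threshold and 10 lost the call, with none reversed. CCND2 was at the floor on most arrays, where no change can be measured.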
